A study of Mus musculus with 6 samples.

Results

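The genes described here encode the subunits of voltage-gated sodium and calcium channels. They were chosen by symbol: sodium channel alpha and beta genes (Scn followed by a number and a or b) and calcium channel alpha1, alpha2delta, beta and gamma genes (Cacna1, Cacna2d, Cacnb and Cacng). The rule found 38 of the 19954 symbols in the deposited count table. The counts come from single nuclei of lumbar cord. All mice were wild-type C57BL/6 animals with legs paralysed by a severe thoracic contusion. In 3 samples the mice were on a treadmill for 30 min under epidural electrical stimulation aimed at the cord (TESS), which the series describes as given together with agonists of the receptors 5-HT1a and D1. In the 3 CON samples the mice were on the treadmill for the same time without stimulation. The labels do not say whether CON mice received the agonists, whether a sample is 1 animal, or the age of the mice, and the extraction protocol speaks of tissue from the thoracic lesion although the source is labelled lumbar.

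The 3 TESS samples gave 2891177, 2316796 and 1582104 UMIs (unique molecular identifiers, each marking a captured RNA molecule) in 2641, 2839 and 2192 nuclei. The CON samples gave 4003227, 4037976 and 3365530 UMIs in 3646, 3416 and 3780 nuclei. A neuron had a median of 2130, 1307 and 1210 UMIs in the TESS samples, and of 1880, 2104.5 and 1512 UMIs in the CON samples, so TESS 2 and TESS 3 were the shallowest. The table held 18514 nuclei, against 20484 stated for the study, and 6035 of them were neurons, against 6171 stated. Of 18308 distinct barcodes, 205 occurred in more than 1 library. Neurons, glia and endothelial nuclei each carried their own defining markers, with no listed marker at 0 in its own class. The endothelial class also held pericyte and fibroblast markers, at 2777 UMIs per 1000000 UMIs beside 9531 for the endothelial markers. No other class passed 146 for the pericyte and fibroblast markers. Hox genes of lumbar levels summed to 51.4 UMIs per 1000000 UMIs in neurons.

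A voltage-gated sodium channel has a pore-forming alpha subunit, which carries the inward current of the action potential, and beta subunits that set its gating and its place in the membrane. A calcium channel has an alpha1 pore, an intracellular beta subunit that brings it to the surface, and an alpha2delta subunit outside the membrane that raises the number of channels at the synapse. The products of most Cacng genes named here are better known as partners of AMPA-type glutamate receptors than as calcium channel subunits. In the spinal cord, sodium channels time the firing of interneurons and motor neurons, and calcium channels govern transmitter release and sustained depolarisations.

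Of the 38 genes, 30 had at least 100 UMIs over all nuclei: 5 of 8 sodium alpha genes, 4 of 4 sodium beta genes, 8 of 10 calcium alpha1 genes, 3 of 4 alpha2delta genes, 4 of 4 calcium beta genes and 6 of 8 gamma genes. The other 8 were near the limit of detection. Scn10a and Scn11a, sodium channels of sensory ganglion neurons, had 2 and 5 UMIs. Cacna1f, the retinal L-type channel, had 2 UMIs and Cacna1s, the L-type channel of skeletal muscle, had 3. Cacng1, a subunit of that muscle channel, had 14 UMIs, Cacng6 had 4 and Cacna2d4 had 57. Scn2a is listed in the table under the older symbol Scn2a1, which the rule does not match, so it is given only where named, and Scn4a was not analysed here.

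Several members are neighbours in the genome (GRCm38, GENCODE vM21). Scn3a (chr2:65457118-65567627), Scn1a (chr2:66270778-66440840), Scn9a (chr2:66480080-66634962) and Scn7a (chr2:66673425-66784914) lie in a row on chromosome 2, all on the minus strand. Scn2b (chr9:45117782-45130070) and Scn4b (chr9:45138395-45154152) are adjacent on chromosome 9. Several members are long: Cacna2d3 spans 817 kb (chr14:28904943-29721864), Cacna1c 609 kb (chr6:118587240-119196418) and Cacna2d1 439.8 kb (chr5:15934691-16374511). The median member was 105 kb long, against 22.0 kb for the matched symbols of the table, and 19 of 38 members were at least 100 kb long, against 13.4% of the table. The strand used in counting is not given in the sources used here, and 11 members overlap another gene of the table, among them Cacna1d (with Chdh and Dcp1a), Cacna1c (with Dcp1b) and Cacna2d3 (with Lrtm1), so UMIs of such pairs may be shared.

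Across the 6 major cell types, 26 of the 30 genes were highest in neurons. Levels are given as CPM, UMIs of a gene per 1000000 UMIs of the cell type in a sample. The cell types were made by clustering these nuclei, so their differences are described without a test. Scn1a, an axonal sodium channel of fast-spiking neurons, stood at 601 ± 53.1 in neurons and 201 ± 40.3 in the next class, oligodendrocyte precursor cells (OPC) (mean ± SD over 6 samples). Cacna1b, the N-type channel of presynaptic terminals, stood at 292 ± 32.6 in neurons, and the highest other class, OPC, reached no more than 99.9 in any sample. Cacna2d1, the best-known target of gabapentin, stood at 700.3 ± 65.7 in neurons, and endothelial nuclei came next at 83.0. For 12 of these 26 genes no sample of the next class reached the lowest neuron sample, and for the other 14 the ranges overlapped.

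**Figure D1:**
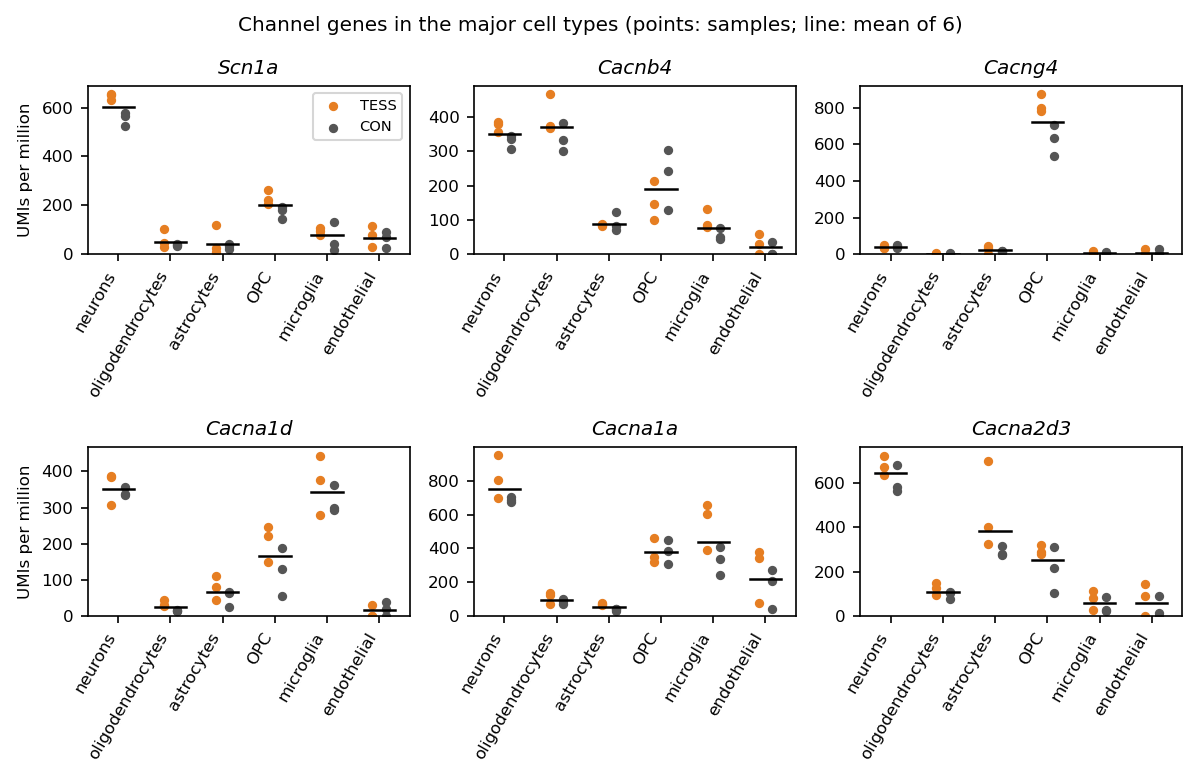
Level of 6 channel genes in each major cell type (CPM), with TESS samples left of CON samples and a line at the mean of 6 samples. Scn1a is highest in neurons, Cacng4 in OPC, and Cacnb4 and Cacna1d have a second class at about the neuron level.

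Cacng4, whose product partners AMPA receptors, was highest in OPC. OPC held 785, 799 and 876 CPM in TESS and 636, 705 and 535 in CON, on 321 UMIs in all, while neurons averaged 41.0. Every OPC sample lay far above every neuron sample, and the OPC level was on average 1817% of the neuron level, where 10 summed neuron markers stood at 14.8%. Cacnb4, a calcium channel beta subunit, stood at 371 ± 56.5 in oligodendrocytes and 352 in neurons, with ranges that overlapped. Oligodendrocytes thus had 105.5% of the neuron level of Cacnb4, where the summed neuron markers stood at 8.74%, and no single neuron marker passed 54.6%. Per nucleus, without division by the UMIs of the class, 29 of 30 genes were highest in neurons and only Cacng4 was not.

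Microglia, the resident immune cells of the cord, had Cacna1d, an L-type channel opened by small depolarisations, at about the neuron level. They held 279.6, 444 and 376 CPM in TESS and 361, 299 and 293 in CON, on 203 UMIs, and neurons averaged 352. This was 96.8% of the neuron level (87.4% to 115.7% over samples), with the summed neuron markers at 11.4%. Cacna1a, the P/Q-type channel of presynaptic terminals, reached 57.9% of its neuron level in microglia, below the highest single neuron marker there (69.1%). In astrocytes, Cacna2d3, an alpha2delta subunit, stood at 382 ± 163, or 59.2% of its neuron level, where the summed markers stood at 5.94% and the highest single marker at 39.4%. The spread came mostly from TESS 2, at 701, while the other 5 samples lay between 274 and 402. The part of free neuronal RNA or of doublets in these glial levels was not tested.

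Neurons were then compared by subtype, over the 24 of 38 deposited subtypes with at least 10 nuclei in every sample. A subtype was called excitatory where its UMIs of glutamate transporter genes exceeded those of GABA and glycine genes, which gave 12 excitatory and 12 inhibitory subtypes among the 24. Fxyd6 (176 against 247 UMIs) and V1/V2b/Slit2 (144 against 481 UMIs) were put with the inhibitory subtypes while holding many UMIs of both kinds. Of the 3 alpha2delta genes detected, Cacna2d1 and Cacna2d3 had opposite patterns over these kinds of neuron. Cacna2d1 had a median of 1105 CPM over excitatory subtypes (463 to 3832) and 88.8 over inhibitory ones (29.7 to 947.5). Cacna2d3 ran the other way, with 93.2 over excitatory subtypes (3.68 to 590.4) and 873 over inhibitory ones (89.9 to 2256). Cacna2d2 had medians of 152 over excitatory subtypes (49.6 to 187) and 190 over inhibitory ones (155 to 415), closer together and with ranges that overlapped.

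The Nts subtype, named for neurotensin, held the most Cacna2d1, at 5016, 4358 and 3596 CPM in TESS and 3584, 3206 and 3230.2 in CON. Its TESS range lay above its CON range, but the difference did not pass the test (log2 fold change 0.31 ± 0.20 (SE), edgeR adjusted p = 0.848). Among the 24 subtypes Cdh3 neurons held the most Cacna2d3, at 2234, 2282 and 2653 in TESS and 2146, 1961 and 2261 in CON. Tac1 neurons, excitatory cells named for substance P, had 2 UMIs of Cacna2d3 in all 6 samples together. Of the inhibitory-called subtypes, Fxyd6 had the highest level of Cacna2d1 (947.5) and held Cacna2d3 at 197, below the inhibitory median. Npy neurons had the lowest level of Cacna2d3 among inhibitory subtypes (89.9) and held Cacna2d1 at 102. Trh and V2a/Etl4, excitatory subtypes, held both, with Cacna2d3 at 590.4 and 499. Over the 24 subtypes the 2 genes had a Spearman rho of −0.79 and a Pearson r of −0.55, where the points share libraries, and subtypes were defined from the same nuclei.

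**Figure D2:**
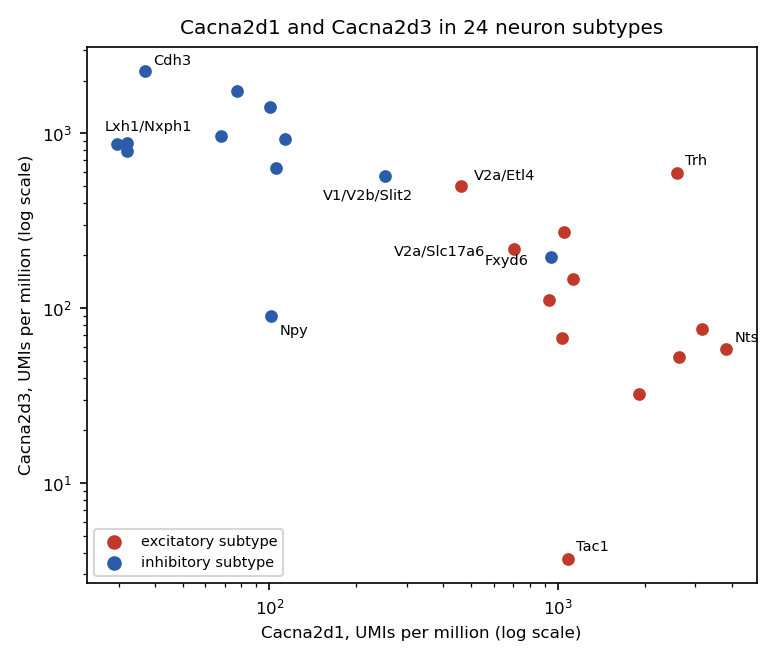
Mean level of Cacna2d1 (horizontal) against Cacna2d3 (vertical) in 24 neuron subtypes, in CPM over 6 samples, both on log scales. Excitatory subtypes (red) lie to the right and inhibitory subtypes (blue) to the upper left, with Fxyd6 among the excitatory ones and Npy low on both axes.

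Several sodium channel genes followed another division, between the 7 subtypes named V1 or V2 after classes of ventral interneurons and the other 17. Scn1a had a median of 779 CPM over the V1- or V2-named subtypes (716 to 923) and 399 over the others (57.8 to 913). The highest was V2a/Etl4, with 784.5, 1016 and 976 in TESS and 844, 961 and 954 in CON. The lowest was Bnc2, with 63.0, 140.1 and 0 in TESS and 143, 0 and 0 in CON, on 5 UMIs. Of the 17 other subtypes, Maf/Clbn2 alone fell within the V1- or V2-named range. Scn8a, the main sodium channel of the axon initial segment and nodes, had medians of 469.6 and 164. Scn4b, a beta subunit linked to repetitive firing, had 92.6 in V1- or V2-named subtypes (35.6 to 150.2) and 9.22 in the others (0 to 113). Maf/Clbn2, at 113, and Rorb-I, at 41.9, lay within the first range. Subtypes with fewer than 10 nuclei in some sample entered neither group. Among them Spp1, called inhibitory, held Scn4b at 199 (56 UMIs) and Scn8a at 680 (196 UMIs). Both lay above the highest V1- or V2-named means, 150.2 and 543. CSF-N, also left out, held Scn4b at 33.7 and Scn8a at 325, below the V1- or V2-named ranges. Scn2b did not follow this division, with medians of 96.9 (35.0 to 158) and 112 (20.5 to 179).

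Scn3a, a sodium channel better known from the developing nervous system, ran against Scn1a. Its median was 113 in V1- or V2-named subtypes (69.4 to 178) and 275 in the others (93.8 to 492). Npyr-1, a subtype named for a neuropeptide Y receptor, was highest, at 615, 764 and 291 in TESS and 454, 446 and 382 in CON. Cacna1e, the R-type channel, had medians of 165 and 674, and among the 24 was highest in Rorb neurons (1323 ± 467) and lowest in V1/Adam23 neurons (97.2 ± 61.2). Among T-type channels, which open near rest, Cacna1h had 1.31 and 20.4, Cacna1g had 15.3 and 37.2, and Cacna1i had 33.3 and 34.6. Cacng4 was the single gene whose ranges of subtype means did not overlap: 1.09 to 8.88 in V1- or V2-named subtypes and 23.3 to 141 in the others. Its counts were low, with 1 UMI in V1/V2b/Slit2. By single samples the groups overlapped, as Npy neurons, with a mean of 122, had a lowest sample of 0. Cacng2, encoding the AMPA receptor partner stargazin, was higher in V1- or V2-named subtypes, at 152 and 85.8.

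**Figure D3:**
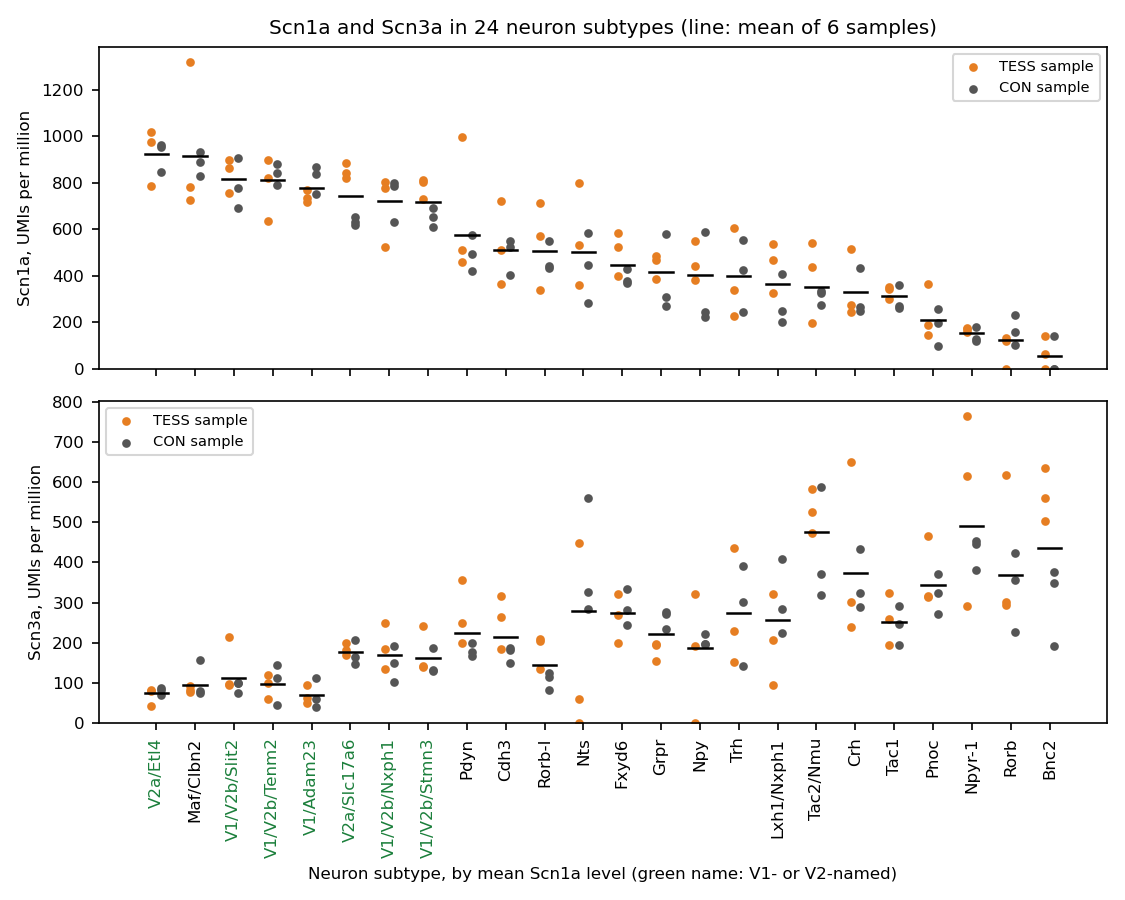
Scn1a (top) and Scn3a (bottom) in each of 24 neuron subtypes, in CPM, with 3 TESS samples left of 3 CON samples and a line at the mean. Subtypes run from high to low Scn1a; the V1- and V2-named ones (green) and Maf/Clbn2 fill the first 8 places and stay at or below 178 for Scn3a.

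Likeness of pattern was measured over 24 subtypes for the 18 genes with at least 1000 neuron UMIs, which gives 153 pairs. These are descriptions, and the subtypes share libraries and differ in depth. Among the close pairs, Cacng2 and Scn1a had rho 0.85 (r 0.82), and Scn1a and Scn8a 0.83 (r 0.86). Scn3a and Cacna1e went together (rho 0.81, r 0.73). Among the opposed pairs, Scn1a and Scn3a had rho −0.89 (r −0.88).

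**Figure D4:**
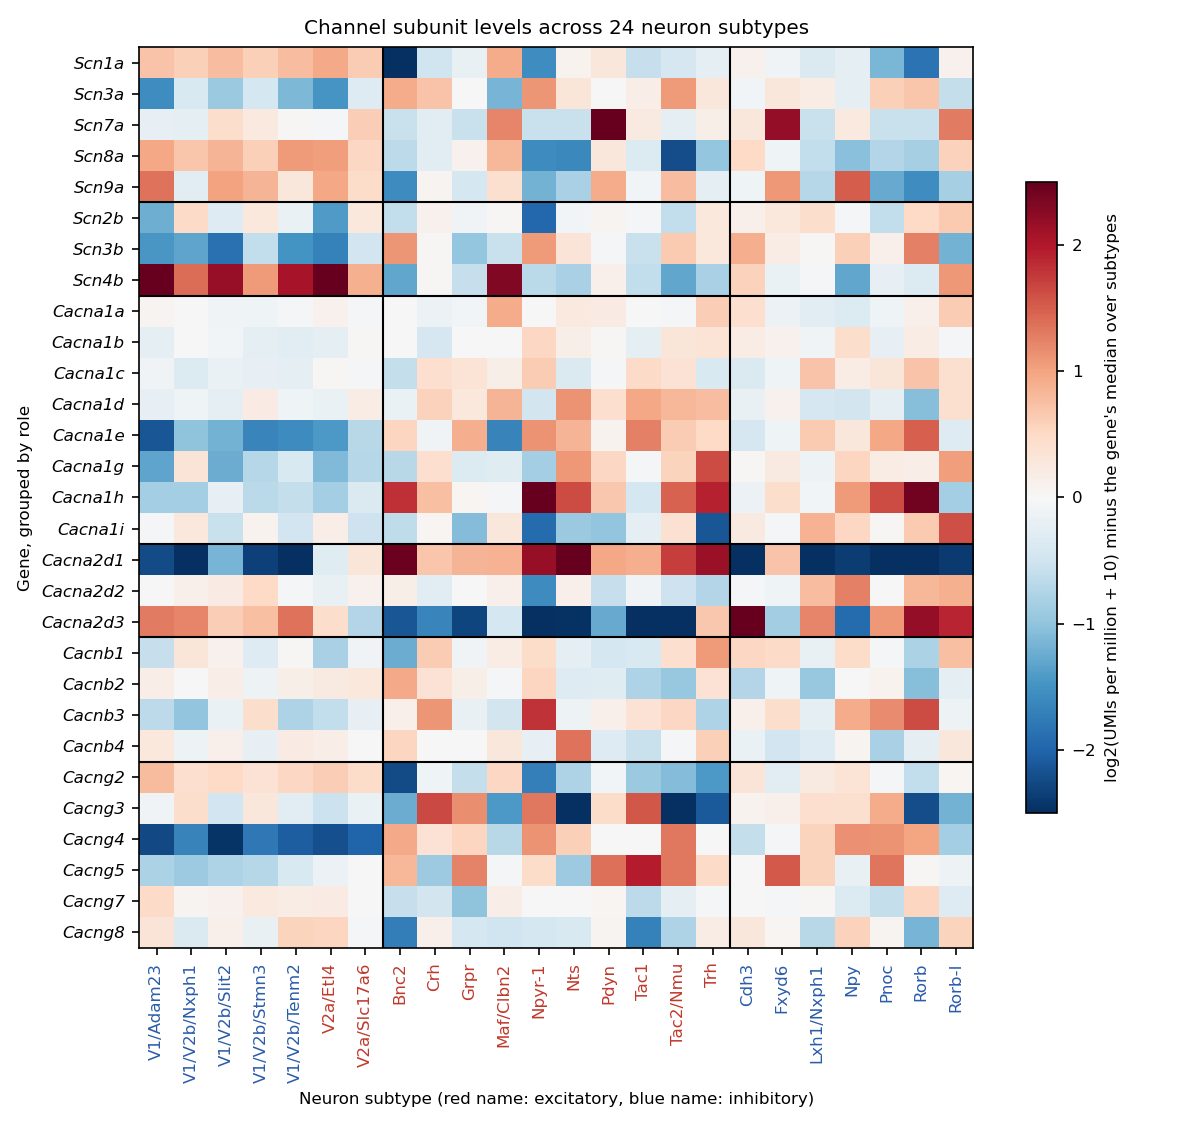
Levels of 29 of the 30 channel genes (rows, grouped by role) in 24 neuron subtypes (columns), as log2 of CPM plus 10, minus the gene's median over subtypes. Columns run from V1- and V2-named subtypes to other excitatory and other inhibitory ones; Scn4b is red and Cacng4 blue in the first group, and Cacna2d1 and Cacna2d3 show opposite colours between excitatory and inhibitory columns.

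The pores of presynaptic calcium channels were present in all 24 subtypes, and the peaks given next are among these 24. Cacna1b ran from 224 (Crh) to 436 (Npyr-1), and Cacna1a from 539 (Npy) to 1318 (Maf/Clbn2). Cacna1c, the common L-type channel of brain, peaked in Lxh1/Nxph1 neurons (906 ± 178) and was lowest in Bnc2 (359). Cacna1d peaked in Nts neurons (676 ± 200). Cacna1g peaked in Trh (119), Cacna1h in Npyr-1 (129.5), and Cacna1i, the third T-type gene, in Rorb-I (125). Among alpha2delta and beta genes, Cacna2d2 peaked in Npy (415), Cacnb1 in Trh (39.2), Cacnb2 in Bnc2 (963), Cacnb3 in Npyr-1 (73.8) and Cacnb4 in Nts (851 ± 205). Among gamma genes, Cacng2 peaked in V1/Adam23 (189), Cacng3 in Crh (177.5), Cacng4 in Tac2/Nmu (141), Cacng5 in Tac1 (63.0), Cacng7 in Rorb (145) and Cacng8 in Npy (113). Among sodium channel genes, Scn7a, a sodium-sensing relative, peaked in Pdyn (92.4 ± 59.1), Scn9a, best known from pain fibres, in Npy (202), Scn2b in Rorb-I (179), Scn3b in Rorb (76.5), Scn8a in V1/V2b/Tenm2 (543 ± 108), Scn4b in V2a/Etl4 (150.2 ± 43.1) and Scn3a in Npyr-1 (492 ± 170.4). Some of these peaks rest on few UMIs, among them Cacnb1 in Trh (6), Cacng8 in Npy (15) and Scn3b in Rorb (16). None of the 30 genes had a highest subtype whose samples all lay above those of the next subtype. For Cacna1h, Cacng3, Cacng5, Cacng7, Cacng8, Scn3b, Scn7a and Scn9a the highest subtype overlapped every other of the 24.

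The other 14 subtypes had fewer than 10 nuclei in some sample. For 20 of the 30 genes 1 or more of these had a higher mean than any of the 24, in several cases on few UMIs. Crabp1 neurons held Cacna2d3 at 3223 CPM (406 UMIs), CSF-N neurons held Cacnb2 at 2025 (109 UMIs), Rora/Parp8 neurons held Cacna1a at 1598 (293 UMIs) and Spp1 neurons held Scn8a at 680 (196 UMIs). The MN subtype, whose nuclei carried motor neuron markers (933 CPM summed), held only 69 nuclei and as few as 5 in a sample, so it entered no subtype test. Its levels rest on few UMIs. Cacna2d3 had 312 UMIs there (1147 ± 247 CPM), Cacna1a 229 (847 ± 354), Cacna1d 175 (636 ± 227) and Cacna2d1 122 (552 ± 261). Cacna1e had 18 UMIs (68.4 ± 50.7 CPM), and Cacng4, Cacnb3, Scn3b and Scn7a had 0.

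TESS was then compared with CON by summing UMIs per sample within each class and testing all genes with edgeR's quasi-likelihood test. In neurons, 0 of the 30 genes tested passed at a Benjamini-Hochberg adjusted p below 0.05, where 1.04% of all 11686 genes passed. At an unadjusted p below 0.05 there were 6, where 14.7% of all genes were, and DESeq2 also called 0. Over all nuclei 0 of 31 passed (0.754% of all genes), with 4 at an unadjusted p below 0.05 (14.9% of all genes) and 0 by DESeq2. In neurons 20 of 30 were higher in TESS (66.7%, against 49.3% of all genes), with a median log2 fold change of 0.13 against −0.01 over all genes. The 2158 tested genes of at least 100 kb had a median of 0.09, with 66.8% higher in TESS. The median of the members was 0.02 without TESS 3, 0.07 without CON 1 and 0.08 without CON 3. TESS values of 7 of the 30 did not overlap CON values, where 19.9% of all genes did not overlap.

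Scn8a had the smallest p among sodium alpha genes, with 395, 327 and 442 CPM in TESS neurons and 299.96, 290.1 and 314 in CON neurons. All TESS values lay above the CON values (log2 fold change 0.34 ± 0.12, adjusted p = 0.183). Scn4b had 67.6, 46.1 and 83.3 in TESS and 45.2, 39.6 and 52.8 in CON. TESS 2 fell within the CON range (0.47 ± 0.18, adjusted p = 0.229), and without TESS 3 the change was 0.31. Cacnb2, a beta subunit, had 545, 584 and 517 in TESS and 413, 453 and 457 in CON. The groups did not overlap (0.30 ± 0.12, adjusted p = 0.226).

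Cacna1a had 807, 697 and 953 in TESS neurons and 676, 686 and 704 in CON neurons (0.22 ± 0.12, adjusted p = 0.39). TESS 3 was highest and TESS 2 lay within the CON range, and without TESS 3 the change was 0.11. Cacna2d2, an alpha2delta subunit, had 186, 183 and 206 in TESS and 172, 154 and 145 in CON (0.26 ± 0.12, adjusted p = 0.327), with no overlap. Cacng7, an AMPA receptor partner, had 102, 105 and 109.7 in TESS and 86.1, 88.4 and 89.7 in CON. Its groups lay close together without overlap (0.24 ± 0.13, adjusted p = 0.423).

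On the lower side, Scn2b, a beta subunit, had 119, 69.2 and 81.3 in TESS neurons and 126, 115 and 104 in CON neurons. TESS 1 lay within the CON range (−0.37 ± 0.16, adjusted p = 0.291), and the change was −0.64 without TESS 1 and −0.21 without TESS 2. Cacna2d1 had 661, 663 and 624 in TESS and 705, 745 and 804 in CON, without overlap (−0.23 ± 0.11, adjusted p = 0.337). With the 24 subtypes alone, weighted alike in every sample and fitted with limma, its change was 0.02, in the other direction. Cacng5 had 16.6, 8.10 and 11.2 in TESS and 13.1, 15.4 and 22.0 in CON (−0.47 ± 0.30, adjusted p = 0.492), and these overlapped. The change of Cacng5 was −0.84 without TESS 1, −0.24 without TESS 2 and −0.25 without CON 3. Scn2a1, outside the symbol rule, had 351, 332 and 378 in TESS neurons and 289, 309 and 296 in CON neurons (0.22 ± 0.11, adjusted p = 0.387).

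Metadata batch numbers allow 1 comparison within a batch: TESS 1 shares batch 3 with CON 1 and CON 2, while TESS 2, TESS 3 and CON 3 are each alone in theirs. What a batch stands for is not given. With batch as a term, which leaves the change to those 3 samples, the log2 fold change in neurons was 0.39 for Scn8a, 0.30 for Cacnb2, 0.64 for Scn4b, 0.21 for Cacna1a, −0.05 for Scn2b and −0.17 for Cacna2d1. None of the 30 passed there, nor did any of the 11686 genes tested, and Cacng5 turned to 0.19.

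**Figure D5:**
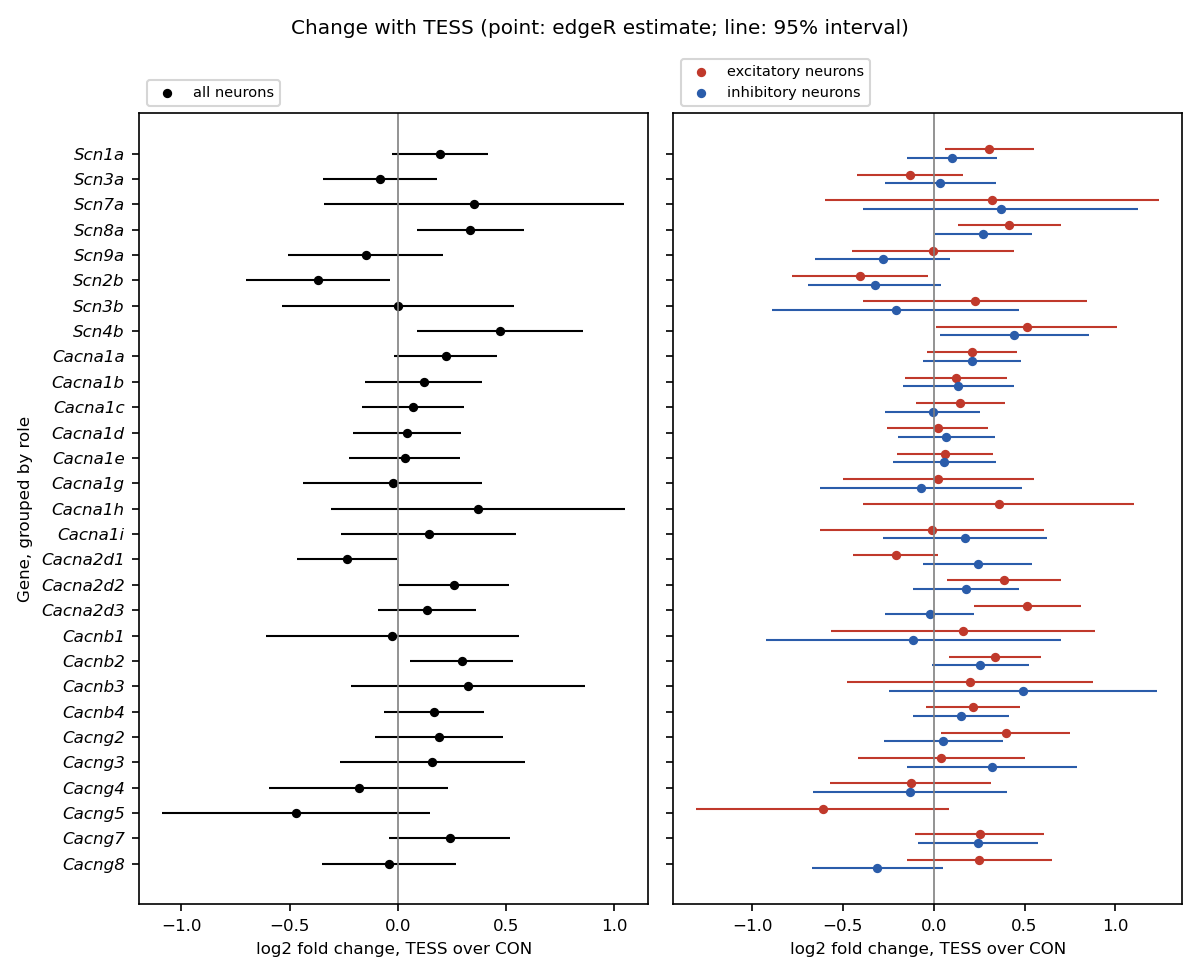
Log2 fold change of 29 of the 30 channel genes tested, TESS over CON, in all neurons (left) and in excitatory (red) and inhibitory (blue) neurons (right), with 95% intervals from edgeR. In all neurons the intervals of Scn8a, Cacnb2, Scn4b and Cacna2d2 lie above 0 and those of Scn2b and Cacna2d1 below 0, no gene passes after adjustment, and the red point of Cacna2d3 lies right of its blue point while that of Cacna2d1 lies left; Cacna1h and Cacng5 were not tested in inhibitory neurons.

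Excitatory and inhibitory neurons were tested apart. In excitatory neurons 0 of 30 genes passed, where 0.94% of all genes did, with 8 at an unadjusted p below 0.05 (13.5% of all genes). In inhibitory neurons 0 of 28 passed, where 0.229% of all genes did, with 2 at an unadjusted p below 0.05 (11.9% of all genes). DESeq2 called 0 in both. The medians of the members were 0.18 and 0.08, against −0.005 and −0.003 over all genes. Genes of at least 100 kb had medians of 0.09 and 0.07. Members of that length had medians of 0.21 and 0.14, and shorter members 0.16 and −0.11. The members' inhibitory median was 0.02 without CON 1 and 0.13 without TESS 1. TESS and CON values did not overlap for 9 of 30 in excitatory neurons (18.1% of all genes) and 5 of 28 in inhibitory neurons (17.1%). Cacna2d3 had the smallest p in excitatory neurons, with 256, 230.04 and 266 CPM in TESS and 180.3, 145 and 193 in CON. All TESS values lay above the CON values (log2 fold change 0.52 ± 0.14, adjusted p = 0.0718), and within batch 3 the change was 0.64. Scn8a (0.42 ± 0.14, adjusted p = 0.159) and Cacnb2 (0.33 ± 0.12, adjusted p = 0.206) followed, also without overlap. Lower without passing were Scn2b (−0.41 ± 0.19), Cacna2d1 (−0.21 ± 0.11) and Cacng5 (−0.61 ± 0.34), with edgeR adjusted p of 0.325, 0.433 and 0.442.

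In inhibitory neurons the smallest p values on the higher side belonged to Scn4b (0.44 ± 0.20, adjusted p = 0.367), Scn8a (0.27 ± 0.13, adjusted p = 0.401) and Cacnb2 (0.26 ± 0.13, adjusted p = 0.44). Lower without passing were Scn2b (−0.32 ± 0.18) and Cacng8, an AMPA receptor partner (−0.31 ± 0.18), with edgeR adjusted p of 0.482 and 0.502. Cacna2d3 had 949, 963 and 1045 CPM in TESS and 1044, 955 and 951 in CON, with full overlap (−0.02 ± 0.12). Cacna2d1 had 212, 207 and 232 in TESS and 175, 156 and 210.1 in CON, where TESS 2 lay within the CON range (0.24 ± 0.15, adjusted p = 0.534).

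The difference between the 2 kinds of neuron was tested itself, with the sample as a block. Of 30 genes, 1 passed, where 0.0556% of the 10795 genes tested did. The TESS change of Cacna2d3 was lower in inhibitory than in excitatory neurons by −0.54 ± 0.12 on the log2 scale (edgeR adjusted p = 0.026). As a ratio of inhibitory to excitatory levels, Cacna2d3 stood at 3.70, 4.19 and 3.92 in TESS samples and 5.79, 6.59 and 4.93 in CON samples. The groups did not overlap, so TESS 1 necessarily also lay below the CON samples of its batch. These ratios come from the same counts as the test. Cacna2d1 differed the other way, by 0.45 ± 0.11, without passing (adjusted p = 0.126), with ratios of 0.161, 0.171 and 0.203 in TESS and 0.125, 0.114 and 0.149 in CON.

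The call of Cacna2d3 depends on which samples and subtypes enter. It was lost without TESS 1 (adjusted p = 0.302), TESS 3 (0.0797), CON 1 (0.127) or CON 2 (0.541), and kept without TESS 2 (0.041) or CON 3 (0.0037). The difference itself lay between −0.65 and −0.44 with a sample left out. Without Fxyd6 and V1/V2b/Slit2, the subtypes with both kinds of transmitter gene, the difference was −0.50 (adjusted p = 0.0636). With subtypes weighted alike in every sample, Cacna2d3 differed by −0.36 (limma adjusted p = 0.947) and Cacna2d1 by 0.04. That fit took in only the 24 subtypes with at least 10 nuclei in every sample. It also replaced edgeR with limma, so it differs from the main test in more than the weighting. The makeup of excitatory neurons differed between groups: V2a/Etl4 and V2a/Slc17a6 made up 25.6%, 22.3% and 19.3% of excitatory nuclei in TESS and 13.7%, 15.6% and 13.5% in CON. These subtypes held Cacna2d3 at 499 and 218, above the excitatory median of 93.2, and Cacna2d1 at 463 and 706, below its excitatory median of 1105. Within them the log2 fold change of Cacna2d3 was 0.16 ± 0.21 and 0.23 ± 0.26, and in Trh neurons 0.75 ± 0.35 (edgeR adjusted p of 0.905, 0.904 and 0.704). The part of subtype makeup in the difference was not tested.

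Over single subtypes, 0 of 291 tests of members passed, where 0.0828% of all gene tests over subtypes did. At an unadjusted p below 0.05 there were 15 (5.15%, against 7.59% of all gene tests), and DESeq2 called none. The smallest p belonged to Cacna1e in Npyr-1 neurons, with 1298, 1359 and 1281 CPM in TESS and 695, 823 and 688 in CON. All 3 TESS values lay well above the CON values (0.79 ± 0.20, adjusted p = 0.141). Cacna1e in Rorb neurons had 1639, 1564 and 1956 in TESS and 783, 1117 and 880.1 in CON (0.83 ± 0.27, adjusted p = 0.379), again without overlap. Over all 291 tests of members, 195 were higher in TESS. Of all genes tested in a subtype, between 47.4% (Nts) and 53.6% (Pnoc) were higher in TESS. Long genes were not counted apart by subtype. In all neurons, 66.8% of the tested genes of at least 100 kb were higher in TESS, and 66.7% of the members. Whether the members differ from long genes within subtypes was not tested. Cacna1a was higher in TESS in 22 of 24 subtypes, Cacnb2 in 20 of 23, Scn8a in 12 of 14 and Cacna2d2 in 11 of 12. Other members were mixed, among them Cacna1d (higher in 12 of 21), Scn3a (9 of 15) and Cacna2d3 (8 of 15). Scn9a was lower in 6 of 6 and Scn2b in 5 of 6. Subtypes share their 6 samples, so these counts are not independent.

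In glia, none of the members tested passed: 0 of 16 in oligodendrocytes (1.65% of all genes), 0 of 10 in OPC (0.155%), 0 of 4 in microglia (0.6%) and 0 of 2 in astrocytes (0.976%). At an unadjusted p below 0.05 there were 3 in oligodendrocytes (14.4% of all genes), 0 in OPC (8.92%), 2 in microglia (11.9%) and 1 in astrocytes (11.6%), and DESeq2 called none in these classes. In astrocytes the member at an unadjusted p below 0.05 was Cacna2d3, named after its values were seen, with 324, 701 and 402 CPM in TESS and 314, 274 and 278 in CON, on 276 UMIs. The groups did not overlap, with TESS 1 just above the CON range and TESS 2 far above it (0.70 ± 0.25, adjusted p = 0.171). Without TESS 2 the log2 fold change was 0.28, and with the batch term 0.08. The neuron markers summed in astrocytes to 1092, 844 and 1682 in TESS and 1110, 821 and 1318 in CON. The part of neuronal RNA in the astrocyte values of Cacna2d3 was not tested. In endothelial nuclei no member had enough counts to be tested. In oligodendrocytes 15 of 16 were higher in TESS (93.8%), against 49.0% of all genes and 66.4% of genes of at least 100 kb. The members' median log2 fold change was 0.47, or 0.18 without TESS 3, against 0.13 for genes of at least 100 kb. For 2 of the 16 the groups did not overlap (19.7% of all genes). Cacna1d, named after its values were seen, had 31.0, 25.96 and 43.5 CPM in TESS and 13.8, 13.3 and 15.5 in CON. The groups did not overlap (1.15 ± 0.33, adjusted p = 0.0807), on 91 UMIs. Scn4b had 24.6, 15.1 and 38.1 in TESS and 4.58, 7.60 and 16.7 in CON (1.34 ± 0.44, adjusted p = 0.131). The 10 neuron markers summed in oligodendrocytes to 1615, 1473 and 2629 in TESS and 1517, 1236 and 1638 in CON, highest in TESS 3. Their part in these values was not tested.

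Other genes that bind, anchor or act with these channels were taken from a list of 36, of which 34 are in the table. In neurons 0 of 30 tested passed (1.04% of all genes, median log2 fold change 0.10), with Gem, an inhibitor of calcium channels that activity induces, at 1.48 ± 0.38 (adjusted p = 0.0638) on 82 UMIs. In oligodendrocytes 2 of 23 rose (1.65% of all genes passed in either direction): Fgf14, an intracellular partner of sodium channel alpha subunits, by 1.29 ± 0.21 (adjusted p = 0.00158), and Fam155a, a subunit of the sodium leak channel, by 1.13 ± 0.25 (adjusted p = 0.0174). Fgf14 had 297, 361 and 612 CPM in TESS oligodendrocytes and 134, 163 and 164 in CON oligodendrocytes, without overlap. In microglia 1 of 11 rose (0.6% of all genes passed), Fam155a, by 1.89 ± 0.38 (adjusted p = 0.013). Both are abundant in neurons, where Fgf14 had 53092 UMIs and Fam155a 23990, against 1074 and 500 in oligodendrocytes. The share of neuronal RNA in the glial counts was not tested.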

How the data were processed

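UMI counts per gene and nucleus, as deposited by the authors, were the starting values. Per the submitters' processing notes, Cell Ranger 2.2.0, Seurat 3 and the builds mm10 and GRCm38 were used; how nuclei were filtered, whether doublets were removed, and the strand and intron settings are not stated there. Cell types, subtypes and batch numbers came from the deposited metadata, whose mitochondrial fraction per nucleus, computed by the authors, entered no comparison. Counts were summed per sample and class and tested with edgeR 4.0.16 (R 4.3.3; TMM, filterByExpr with a minimum count of 10, quasi-likelihood F test, Benjamini-Hochberg over all genes of the class, call below 0.05). SE is the absolute log2 fold change over the square root of F. The code recovered changes in simulated neuron counts when checked. Those changes were larger than any estimated for a member in all neurons, so the check does not bear on changes of the members' size. Levels (CPM) are UMIs per 1000000 UMIs of the class, and are not compared between genes. Alternatives were DESeq2 1.42.0, RLE factors, no filter, a batch term, a replicate block, each sample left out, UMIs per nucleus, and subtypes weighted alike (limma 3.58.1 on log2(CPM + 1)). The weighted fits took in only the 24 subtypes with at least 10 nuclei in every sample.

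Named were members called and, where a neuron class had none in a direction, the 3 with the smallest p, plus the smallest p of each role in neurons, and each gene's highest subtype. The members and lists were chosen with earlier results of these data known. No label says that samples are separate animals, so p-values measure only the spread between these samples. Gene lengths come from GENCODE vM21, which 19153 of 19954 symbols matched. Values of some members are not reported here, though they count in the totals.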

Additional observations from a re-analysis of the deposited data

Results flagged for a closer look

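The TESS effect on Cacna2d3 differed between inhibitory and excitatory neurons by −0.54 on the log2 scale (edgeR interaction test, adjusted p = 0.026, over 10795 genes). The call was lost without TESS 1, TESS 3, CON 1 or CON 2, and kept without TESS 2 or CON 3. It was also lost without Fxyd6 and V1/V2b/Slit2 (edgeR adjusted p = 0.0636). The level ratio of inhibitory over excitatory neurons was lower in each of 3 TESS samples than in each of 3 CON samples. In excitatory neurons alone the change was 0.52 and in inhibitory neurons −0.02. The V2a share of excitatory nuclei was higher in every TESS sample than in any CON sample. With subtypes weighted alike the difference was −0.36 (limma adjusted p = 0.947). That fit used limma in place of edgeR and only the 24 subtypes with at least 10 nuclei in every sample.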

How the results depend on the processing

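The count of members called stayed at 0 in each class under RLE factors, no filter, DESeq2, the batch term and each sample left out. The replicate block called 1 in excitatory neurons, Cacna2d3 (adjusted p = 0.0491). Deviations of same-numbered TESS and CON samples had correlations of −0.05, −0.002 and −0.02, and no sample correlated best with its own number. With 3 samples a group, values this near 0 cannot settle whether the numbers pair the samples. Members whose TESS effect differed between inhibitory and excitatory neurons numbered 1, but 2 with no filter (Cacna2d1 added), 0 without Fxyd6 and V1/V2b/Slit2, 0 with subtypes weighted alike, and 0 to 2 with a sample left out; leaving out those subtypes and weighting within excitatory and inhibitory neurons were chosen after seeing the data. Signs turned for Cacna2d1 with subtypes weighted alike (0.023 in neurons and 0.017 in excitatory neurons), for Cacng5 in neurons and Scn2b in inhibitory neurons with the batch term (0.19 and 0.062), and for Cacna2d3 in inhibitory neurons, near 0 throughout, with subtypes weighted alike (0.021), without Fxyd6 and V1/V2b/Slit2 (0.010) and with samples left out (−0.046 to 0.012). The cause was not tested. The number of genes highest in neurons was 25 or 26 with a sample left out. In neurons the calls over all genes were 122, but 19 without TESS 3, 25 without CON 2, 33 without CON 3 and 0 with the batch term, so the percentages beside the members' counts depend on which libraries enter. In inhibitory neurons with a sample left out, the change ranged from −0.64 to −0.18 for Scn2b, from −0.40 to −0.21 for Cacng8, from 0.16 to 0.32 for Cacnb2 and from 0.17 to 0.37 for Cacna2d1, and in excitatory neurons from −0.64 to −0.23 for Scn2b and from −0.87 to −0.35 for Cacng5. Genes under 100 UMIs allow no statement on their pattern.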
